A study of Homo sapiens with 3 samples.

Results

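N-linked glycans are sugar trees that the cell builds on a lipid carrier in the membrane of the endoplasmic reticulum, hands over as a block to asparagines of new proteins, and then trims and rebuilds in the Golgi. The 41 genes described here encode enzymes and subunits of that route. They were taken from a list of symbols and fall into 4 groups by their step: 15 genes of lipid-linked assembly and sugar donor supply, 10 subunits of the oligosaccharyltransferase, 8 trimming genes and 8 genes of Golgi branching and capping. Each gene was read from its brightest probe set, among the probe sets annotated to that gene alone. In all, 40 of the 41 had such a probe set, of 19775 genes with one on the array. PMM2, a phosphomannomutase, was without one. They were listed by name and step, not by a threshold on a measured value, but with earlier results of these data known.

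RNA came from 3 lines of HT1080, an established human fibrosarcoma line, on 1 Affymetrix array per line. HT1080-Zeo was mock-transfected. HT1080-RECK was stably transfected with the vector pZeoSV2(+) carrying RECK, a membrane-anchored glycoprotein known to restrain metalloproteinases. HT1080-RECK/4NQ carried the same vector with a form of RECK in which the 4 asparagines at positions 86, 200, 297 and 352, where N-glycans attach, had been changed to glutamine. All lines grew in 10% fetal calf serum with 50 µg/mL Zeocin, the selection drug. No label tells if a line is 1 clone or a pool, and the introduced gene cannot be told apart from anything else in which the lines differ. With 1 array per line there is no replicate error, no test and no p-value, and each value below compares 1 array with another. More cells making a transcript and more transcript per cell cannot be told apart in such RNA.

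The values are MAS5 signals, linear intensities with 1 value per probe set. Where 3 signals of a gene follow each other, their order is Zeo, RECK, RECK/4NQ. The median signal was 20.3 (Zeo), 17.9 (RECK) and 17.3 (RECK/4NQ). Signals below 12.2, which is the 40th percentile over the arrays and is called the floor, were raised to it before ratios were taken. Of 8 mesenchymal markers, 8 were at or above the floor on every array, between 45.9 and 12093. Of 6 epithelial markers, KRT8 was above it on all arrays (1306, 1659 and 1039) and CDH1 on the RECK/4NQ array, at 15.6. RECK was at 264 (Zeo), 387 (RECK) and 442 (RECK/4NQ) by its brightest probe set. It is not known here if that probe set reads the introduced sequence, so the value is no check of the labels. Haematopoietic CD14 and endothelial CDH5 and KDR were below the floor on all arrays, while PECAM1 read 108, 70.3 and 72.4 CD3E read 48.7, 26.6 and 34.3, and PTPRC read 17.8, 11.1 and 9.12; the part of these in the results was not tested.

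Assembly starts when DPAGT1 puts the first sugar on dolichol phosphate. The ALG enzymes then add the other N-acetylglucosamine, the mannoses and the glucoses in a fixed order, on the cytosolic and then the luminal face of the membrane. The oligosaccharyltransferase, with STT3A or STT3B as its catalytic subunit, moves the finished glycan to asparagine in the sequence asparagine, any residue but proline, then serine or threonine. Glucosidases and mannosidases trim the glycan, which also reports on protein folding. MGAT enzymes, FUT8, B4GALT1 and ST6GAL1 then add branches, core fucose, galactose and sialic acid.

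As a group these genes passed the folds used here at shares near or below those of all genes in most counts. In RECK against Zeo, 7 of the 39 members at or above the floor in mean level were at least 1.5-fold lower and 1 was at least 1.5-fold higher. That is 17.9% and 2.56%, where 22.0% and 10.6% of all 14289 genes at or above the floor passed the same folds. At 2-fold 4 members were lower (10.3%, against 8.01% of all genes) and 0 higher (4.65% of all genes). In RECK/4NQ against Zeo, 6 members were at least 1.5-fold lower (15.4%, against 21.0% of all genes) and 2 higher (5.13%, against 9.23%), while 0 passed 2-fold, where 8.61% of all genes were lower and 3.46% higher. In RECK against RECK/4NQ, 7 members were at least 1.5-fold lower (17.9%, against 16.6% of all genes) and 2 higher (5.13%, against 16.4%), and at 2-fold 3 were lower (7.69%, against 5.70%) and 0 higher (against 7.05%).

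Weak signals give large ratios, and most members were bright. Among the 33 members whose mean signal reached 95.5, the 80th percentile, 5 were at least 1.5-fold lower in RECK than in Zeo (15.2%, against 15.1% of the 6452 genes that bright) and 0 higher (against 5.22%). At 2-fold 2 were lower (6.06%, against 3.16%) and 0 higher (against 1.63%). In RECK/4NQ against Zeo 4 were lower (12.1%, against 9.05%) and 1 higher (3.03%, against 4.76%), with 0 past 2-fold, where 1.95% of genes that bright were lower and 0.945% higher. In RECK against RECK/4NQ 6 were lower (18.2%, against 14.4%) and 1 higher (3.03%, against 7.94%), and at 2-fold 3 were lower (9.09%, against 3.19%) and 0 higher (against 2.81%). At 1.5-fold the shares of bright members that were lower lay near those of equally bright genes, and the shares at 2-fold rest on 2 and 3 genes.

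The median log2 ratio of the 39 members was -0.33 (RECK over Zeo), -0.17 (RECK/4NQ over Zeo) and -0.14 (RECK over RECK/4NQ). Over all genes it was -0.20, -0.12 and -0.06, so the members lay at -0.13, -0.05 and -0.08 relative to all genes. Between their quartiles the members spanned 0.47, 0.51 and 0.60 on this scale, against 0.69, 0.68 and 0.77 for all genes. At matched brightness the members were narrower in the first comparison and wider in the others: the bright members spanned 0.44, 0.49 and 0.63, against 0.52, 0.46 and 0.57 for bright genes, and their medians relative to bright genes were -0.14, -0.085 and 0.0077. The split of calls depends on scaling. When the arrays were centred on their median signals, the all-gene medians became -0.01, 0.10 and -0.11. The members past 1.5-fold were then 2 higher and 4 lower for RECK over Zeo, where 15.1% of all genes were higher and 14.2% lower. For RECK/4NQ over Zeo they were 7 higher and 2 lower, where 16.3% of all genes were higher and 13.3% lower. After quantile normalisation 4 were higher and 7 lower for RECK over RECK/4NQ, beside 17.3% and 14.9% of all genes. The values below are as deposited, and a value called relative has the all-gene median subtracted. The error scale given with it is 1 spread, the robust spread of this ratio over the 1000 genes of most similar signal, a figure that mixes noise with true differences.

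**Figure D1:**
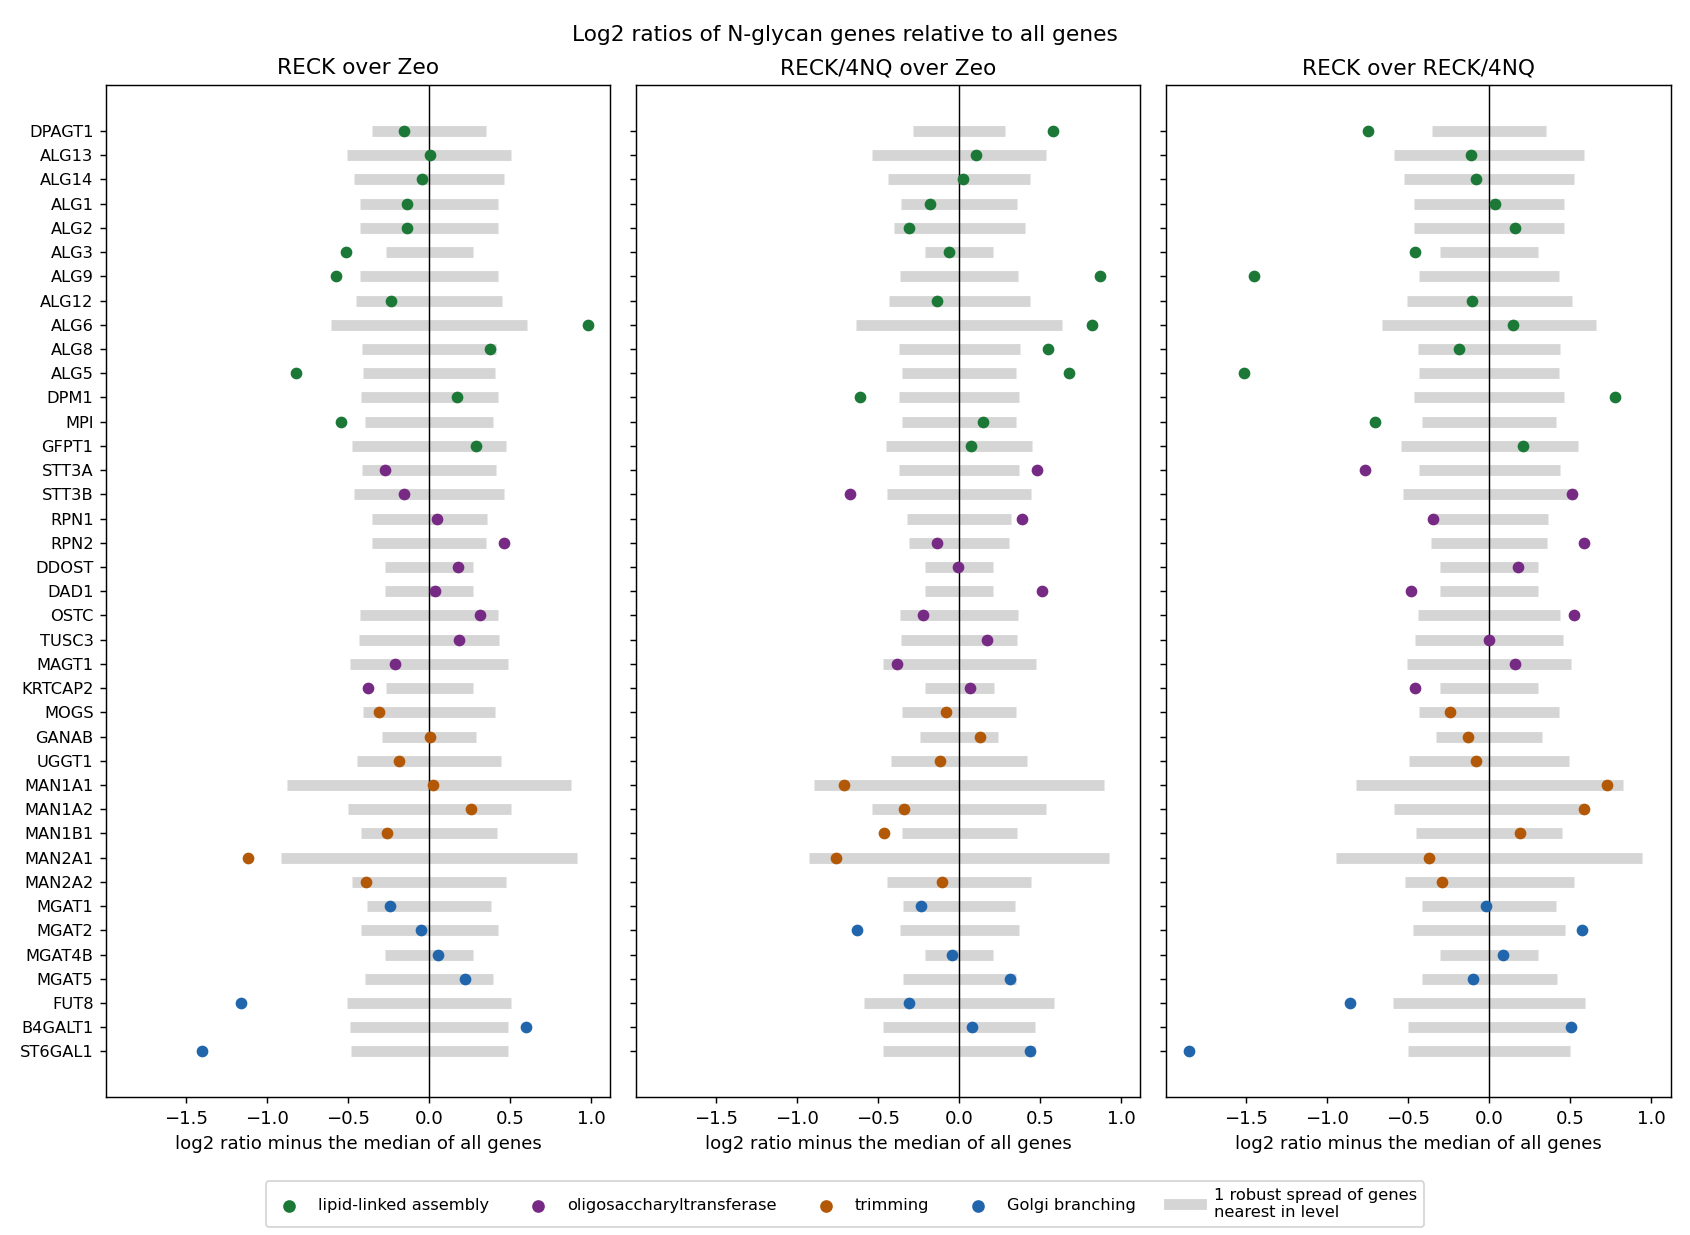
Log2 ratio of each of the 39 members at or above the floor minus the median of all genes, for the 3 comparisons. Points are coloured by group and grey bars show 1 robust spread of genes nearest in level on either side of 0. Most points lie on their bars, and ALG9, ALG5 and ST6GAL1 lie farthest to the left in RECK over RECK/4NQ.

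Among the enzymes that build the glycan on dolichol, the clearest contrast was between the lines with the 2 forms of RECK. ALG5, which makes the dolichol-linked glucose used for the last additions, read 490 (Zeo), 242 (RECK) and 721 (RECK/4NQ). ALG9, a mannosyltransferase of the luminal steps, had 255, 150 and 429 on these arrays. RECK was thus the lowest array and RECK/4NQ the highest for both genes.

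ALG5 was 2.98-fold lower in RECK than in RECK/4NQ, a relative log2 ratio of -1.51 or -3.51 spreads. The same ratio of ALG9 was 2.86-fold, at -1.45 or -3.38 spreads. Against Zeo, ALG5 was 2.02-fold lower in RECK and 1.47-fold higher in RECK/4NQ, and ALG9 was 1.70-fold lower and 1.68-fold higher. After centring, the ALG9 ratio of RECK to Zeo was just short of 1.5-fold, at a log2 value of -0.58, and with probe sets averaged that of ALG5 was -0.55. The other probe set of ALG9 was dim, at 39.6 (Zeo), 9.47 (RECK) and 27.2 (RECK/4NQ). It was also lowest in RECK, but in RECK/4NQ it was below Zeo, so that the higher value of ALG9 in RECK/4NQ than in Zeo rests on the brightest probe set. A dim probe set of ALG5 gave 30.2, 15.2 and 24.4, and another gave 19.7, 25.2 and 35.9. Neither had RECK/4NQ below RECK, but the former had RECK/4NQ below Zeo and the latter had RECK above Zeo. The full order of the arrays for ALG5 thus rests on the brightest probe set.

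DPAGT1 catalyses the first step of the route and is the target of tunicamycin. Its only probe set gave 1438 (Zeo), 1128 (RECK) and 1977 (RECK/4NQ). The RECK array was 1.75-fold below the RECK/4NQ array, a relative log2 ratio of -0.75 or -2.13 spreads.

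MPI, which feeds mannose into the pathway from fructose 6-phosphate, was at 630 (Zeo), 378 (RECK) and 643 (RECK/4NQ). It was 1.67-fold lower in RECK than in Zeo, at -0.54 relative or -1.38 spreads, while RECK/4NQ differed from Zeo 1.02-fold. A second probe set of MPI read 154, 90.9 and 125, also lowest in RECK, but with RECK/4NQ below Zeo, at a log2 ratio of -0.30. ALG3, the first of the luminal mannosyltransferases, was at 4054, 2482 and 3566, which is 1.63-fold lower in RECK than in Zeo (-0.51 relative, -1.91 spreads). This ALG3 ratio and the MPI ratio came to 1.5-fold or less after centring and after quantile normalisation, with log2 ratios of -0.52 and -0.55 for each method on ALG3, and -0.55 and -0.55 on MPI.

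DPM1, the catalytic subunit of dolichol-phosphate mannose synthase, went the other way. It was at 365 (Zeo), 358 (RECK) and 219 (RECK/4NQ). It was 1.66-fold lower in RECK/4NQ than in Zeo, at -0.61 relative or -1.66 spreads, but less than 1.5-fold lower after centring, at a log2 ratio of -0.50. ALG6, which adds the first glucose, was dim, at 26.3, 45.2 and 42.6 on these arrays, and so 1.72-fold higher in RECK and 1.62-fold higher in RECK/4NQ than in Zeo, or 1.62 and 1.29 spreads.

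The other 7 assembly genes with a probe set did not pass 1.5-fold in any comparison as deposited by the brightest probe set. After centring ALG8 did in RECK/4NQ over Zeo, at a log2 ratio of 0.66. As deposited, dimmer probe sets of ALG13 gave -0.84 and -1.05 in that comparison, and 1 of ALG14 gave 0.59. Dimmer ones of ALG13 also gave -0.66 and 1.14 in RECK over Zeo, and 1.45 and 1.14 in RECK over RECK/4NQ. In RECK over RECK/4NQ dimmer ones of GFPT1 gave 0.91 and 0.85. ALG13 and ALG14, which together add the other N-acetylglucosamine, read 62.8, 55 and 62.0, and 143, 121 and 134, in the order Zeo, RECK and RECK/4NQ. The cytosolic mannosyltransferases ALG1 and ALG2 read 318, 253 and 258, and 209, 166 and 156. A dimmer probe set of ALG2 read 57.0, 8.27 and 26. The luminal mannosyltransferase ALG12 read 183, 136 and 153, and the glucosyltransferase ALG8 read 193, 219 and 260. GFPT1, which commits fructose 6-phosphate to the hexosamine pathway, read 126, 134 and 121. The 14 assembly genes had a relative median of -0.14 in RECK over Zeo, 0.09 in RECK/4NQ over Zeo and -0.11 in RECK over RECK/4NQ, and without probe sets designed to match several transcripts the second value was -0.14.

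**Figure D2:**
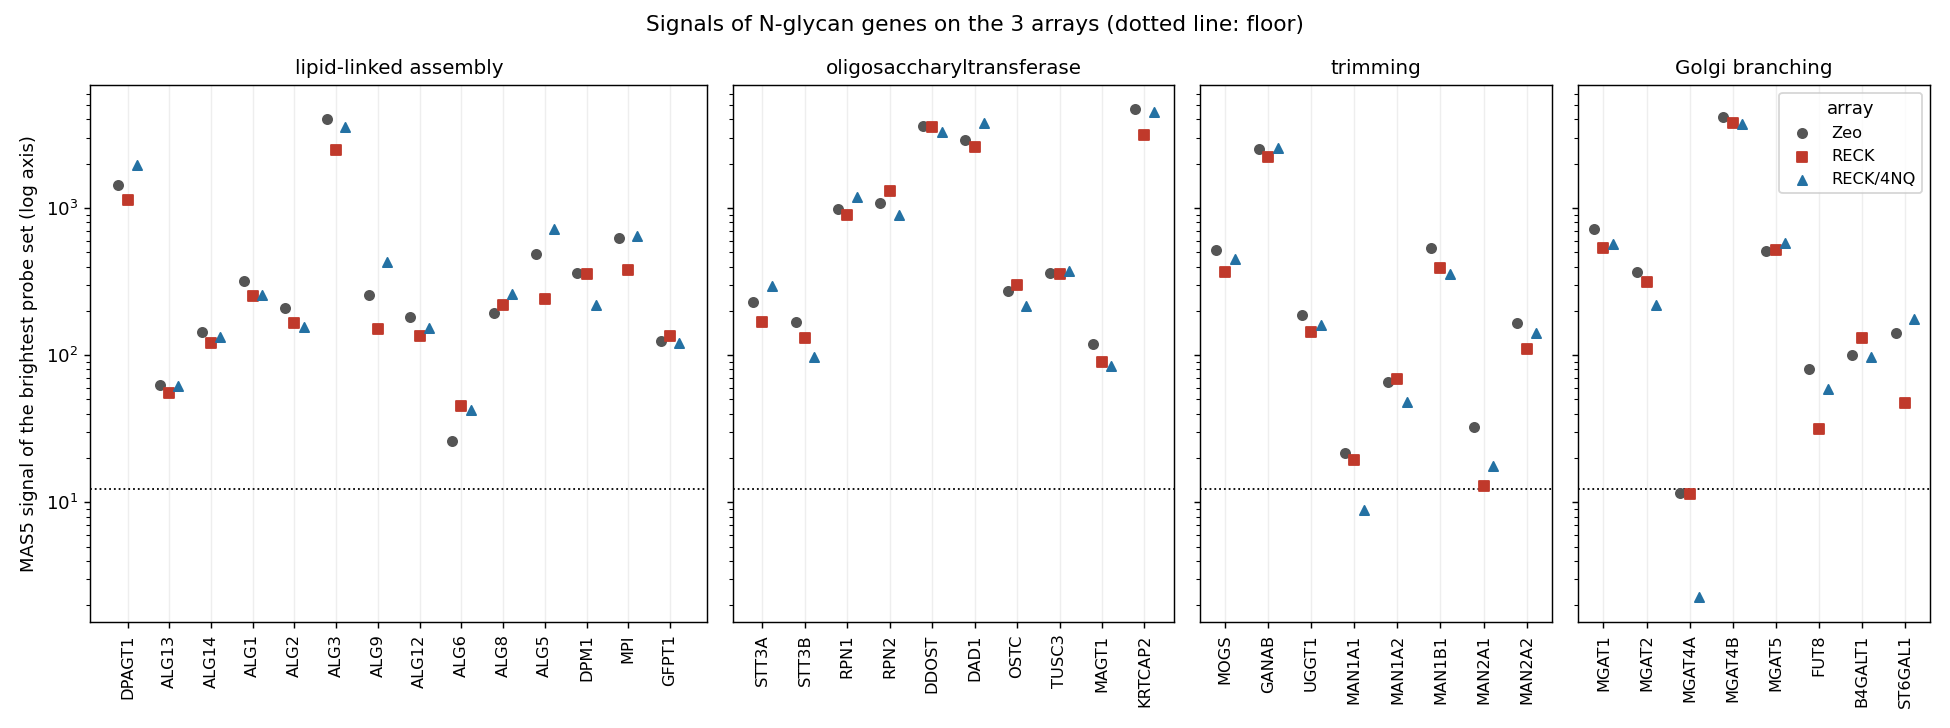
MAS5 signal (log axis) of the brightest probe set of the 40 members with one, in 4 panels by group, with 1 symbol per array and the floor of 12.2 as a dotted line. ALG5, ALG9, FUT8 and ST6GAL1 have the RECK symbol well below the others, and MGAT4A is under the line on all arrays.

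The oligosaccharyltransferase exists in 2 forms. The STT3A form sits at the translocon, where OSTC and KRTCAP2 (KCP2) belong to it, and glycosylates proteins as they enter. The STT3B form carries TUSC3 or MAGT1, oxidoreductases that help reach sites near cysteines, and takes sites the first form skipped. STT3A was at 231 (Zeo), 167 (RECK) and 296 (RECK/4NQ). STT3B was at 167, 131 and 96.5. The catalytic subunits thus went opposite ways in RECK/4NQ, where STT3A was 1.28-fold above and STT3B 1.74-fold below Zeo. The log2 ratio of STT3A minus that of STT3B was 1.15 in RECK/4NQ against Zeo, whereas in RECK against Zeo it was -0.12. Each catalytic subunit rests on 1 probe set, and their own relative ratios to Zeo were 1.30 and -1.52 spreads. Of the 10 subunits, STT3B alone passed 1.5-fold against Zeo in either line by the brightest probe set as deposited. A dimmer probe set of KRTCAP2 read 70.4 (Zeo), 33.7 (RECK) and 55.3 (RECK/4NQ), a log2 ratio of -1.06 in RECK over Zeo. After centring the ratio of STT3B was under 1.5-fold, with a log2 value of -0.56. STT3A and DAD1 were then past 1.5-fold higher in RECK/4NQ than in Zeo, at 0.59 and 0.62. In RECK against RECK/4NQ, STT3A was 1.77-fold lower, the only subunit past 1.5-fold there by the brightest probe set as deposited. Other probe sets of RPN2 gave log2 ratios of 0.61 and 0.68 there. A dimmer one of KRTCAP2 gave -0.72 and a dim one of TUSC3 gave 0.80. DAD1 was at -0.59 after centring, and RPN2 was at 0.68 after quantile normalisation.

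Among the subunits particular to 1 form, KRTCAP2 was at 4688 (Zeo), 3150 (RECK) and 4516 (RECK/4NQ), 1.49-fold lower in RECK than in Zeo. OSTC was at 274, 298 and 216. The oxidoreductases that serve STT3B come next. TUSC3 read 361, 358 and 374, and MAGT1 read 119, 89.8 and 83.8, so MAGT1 was 1.42-fold lower in RECK/4NQ than in Zeo, which is -0.81 spreads relative to all genes.

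The shared core is made of RPN1 and RPN2 (the ribophorins), DDOST and DAD1. RPN2 had 3 probe sets that moved together. The brightest read 1080 (Zeo), 1298 (RECK) and 903 (RECK/4NQ), the next 1049, 1273 and 831, and the last 892, 1115 and 696. All 3 are designed to match more than 1 transcript, and may share probes. By the brightest probe set, RPN2 was 1.44-fold higher in RECK than in RECK/4NQ (1.64 spreads). RPN1 read 989, 894 and 1188, and DAD1 read 2900, 2595 and 3791. DAD1 was 1.31-fold higher in RECK/4NQ than in Zeo, at 0.51 relative or 2.41 spreads, since genes of its brightness vary little. DDOST read 3599, 3560 and 3290 by its brightest probe set and 3005, 3128 and 2501 by another. The 10 subunits had relative medians of 0.04, 0.03 and 0.08 in the 3 comparisons, beside the -0.13, -0.05 and -0.08 of all members. These small values changed sign with the processing: the first was -0.098 with no filter on level, the second -0.11 after quantile normalisation and the third -0.25 without shared probe sets.

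Trimming genes lay low relative to all genes in both transfected lines, but only weakly. Their relative median was -0.22 in RECK over Zeo and -0.23 in RECK/4NQ over Zeo, and 5 and 7 of the 8 lay below the all-gene median. These comparisons share the Zeo array. With all probe sets of a gene averaged the medians were -0.098 and -0.075, and without shared probe sets that of RECK/4NQ was -0.45. Glucosidase I, MOGS, which takes off the outermost glucose, was at 518 (Zeo), 365 (RECK) and 450 (RECK/4NQ). GANAB, the catalytic subunit of glucosidase II, was at 2537, 2226 and 2546. UGGT1, which puts a glucose back on misfolded glycoproteins, was at 188, 144 and 159. None of these passed 1.5-fold in any comparison by the brightest probe set. Dimmer probe sets of UGGT1 differed in direction. In RECK over Zeo 1 gave a log2 ratio of 0.69 and another -0.65, and the latter gave -0.69 in RECK/4NQ over Zeo.

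MAN1B1, the mannosidase of the endoplasmic reticulum route to degradation, had 2 probe sets in agreement. They read 539 (Zeo), 393 (RECK) and 359 (RECK/4NQ), and 473, 396 and 365. The first was just past 1.5-fold lower in RECK/4NQ than in Zeo, a relative log2 ratio of -0.47, while the 20 measured genes nearest to MAN1B1 on chromosome 9 had a relative median of -0.28. With the neighbours subtracted the log2 ratio was -0.30, and with probe sets averaged -0.48, neither past 1.5-fold. It was -0.36 after centring and -0.52 after quantile normalisation, also short of 1.5-fold.

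Of the Golgi mannosidases, MAN1A1, MAN1A2 and MAN2A1 were under the bright level of 95.5. MAN1A1 read 21.8 (Zeo), 19.3 (RECK) and 8.84 (RECK/4NQ), the last below the floor. It was thus at least 1.78-fold lower in RECK/4NQ than in Zeo, but only -0.80 spreads relative to all genes. Another probe set of MAN1A1 read 23.1, 9.85 and 11.7, below the floor in both RECK and RECK/4NQ. With probe sets averaged, the MAN1A1 log2 ratio of RECK over RECK/4NQ was 0.17, against 0.66 by the brightest. MAN1A2 read 65.6, 68.6 and 47.8. MAN2A1, Golgi mannosidase II, read 32.3, 13 and 17.6 by its brightest probe set, which is 2.48-fold lower in RECK and 1.84-fold lower in RECK/4NQ than in Zeo. Another probe set of MAN2A1 went from 4.73 in Zeo to 23.8 in RECK and 17.5 in RECK/4NQ, and averaging its probe sets gave log2 ratios of 0.16 and 0.10 to Zeo. The direction for MAN2A1 is therefore not settled by these arrays. Its paralog MAN2A2 read 166, 111 and 142 and did not pass 1.5-fold.

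In the Golgi, 2 enzymes that finish the glycan had the lowest ratios of all 39 members in RECK over Zeo. ST6GAL1, which adds α2,6-linked sialic acid to galactose, was at 142 (Zeo), 47.0 (RECK) and 177 (RECK/4NQ). RECK was thus the array that stood apart. ST6GAL1 was 3.02-fold lower in RECK than in Zeo (-1.40 relative, -2.89 spreads) and 3.76-fold lower than in RECK/4NQ (-1.85 relative, -3.71 spreads). Its other probe sets read 4.87, 15.7 and 0.482, and 4.27, 2.93 and 22.9. At these levels they carry little information, but averaging them in gave a log2 ratio of -0.15 to Zeo and 0.05 to RECK/4NQ.

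FUT8 attaches fucose to the innermost N-acetylglucosamine and is the only human enzyme for this core fucose. It was at 80.03 (Zeo), 31.3 (RECK) and 59.3 (RECK/4NQ) by its brightest probe set, 2.56-fold lower in RECK than in Zeo (-1.16 relative, -2.29 spreads). The other FUT8 probe set read 46.9, 40.6 and 47.2. It had RECK lowest as well, but by less than 1.5-fold. By the brightest probe set FUT8 was also 1.89-fold lower in RECK than in RECK/4NQ (-0.86 relative, -1.45 spreads). With probe sets averaged this log2 ratio was -0.57, under 1.5-fold. The 20 measured genes around FUT8 on chromosome 14 had a relative median of -0.32 for RECK over Zeo, and with it subtracted the log2 ratio of FUT8 was -1.03.

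MGAT1, the branching enzyme that opens the way to hybrid and complex glycans, was at 726 (Zeo), 537 (RECK) and 568 (RECK/4NQ). MGAT2, which starts the branch on the other arm, was at 370, 312 and 220, and so 1.69-fold lower in RECK/4NQ than in Zeo (-0.63 relative, -1.73 spreads). A second bright probe set of MGAT2 read 321, 253 and 284, where RECK/4NQ was above RECK, and a dim one read 21.0, 20.9 and 9.51. MGAT5, whose β1,6 branch is known from metastatic cells, was at 507, 516 and 578. MGAT4B read 4185, 3790 and 3725. Its paralog MGAT4A was below the floor on all arrays, at 11.7, 11.3 and 2.26, and was the member left out of medians. B4GALT1, the main β1,4-galactosyltransferase, read 99.5, 131 and 96.6. Its ratio of RECK to Zeo was 1.32-fold as deposited and past 1.5-fold after centring, at a log2 value of 0.59. Dimmer B4GALT1 probe sets gave log2 values of 1.33, 0.64, 0.48 and -0.18 for that ratio. In the same order they gave 0.012, 0.97, 0.034 and 0.41 in RECK/4NQ over Zeo. For RECK over RECK/4NQ their values were 1.32, -0.33, 0.44 and -0.59. After centring, MGAT2 was within 1.5-fold of Zeo in RECK/4NQ, at a log2 ratio of -0.52.

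**Figure D3:**
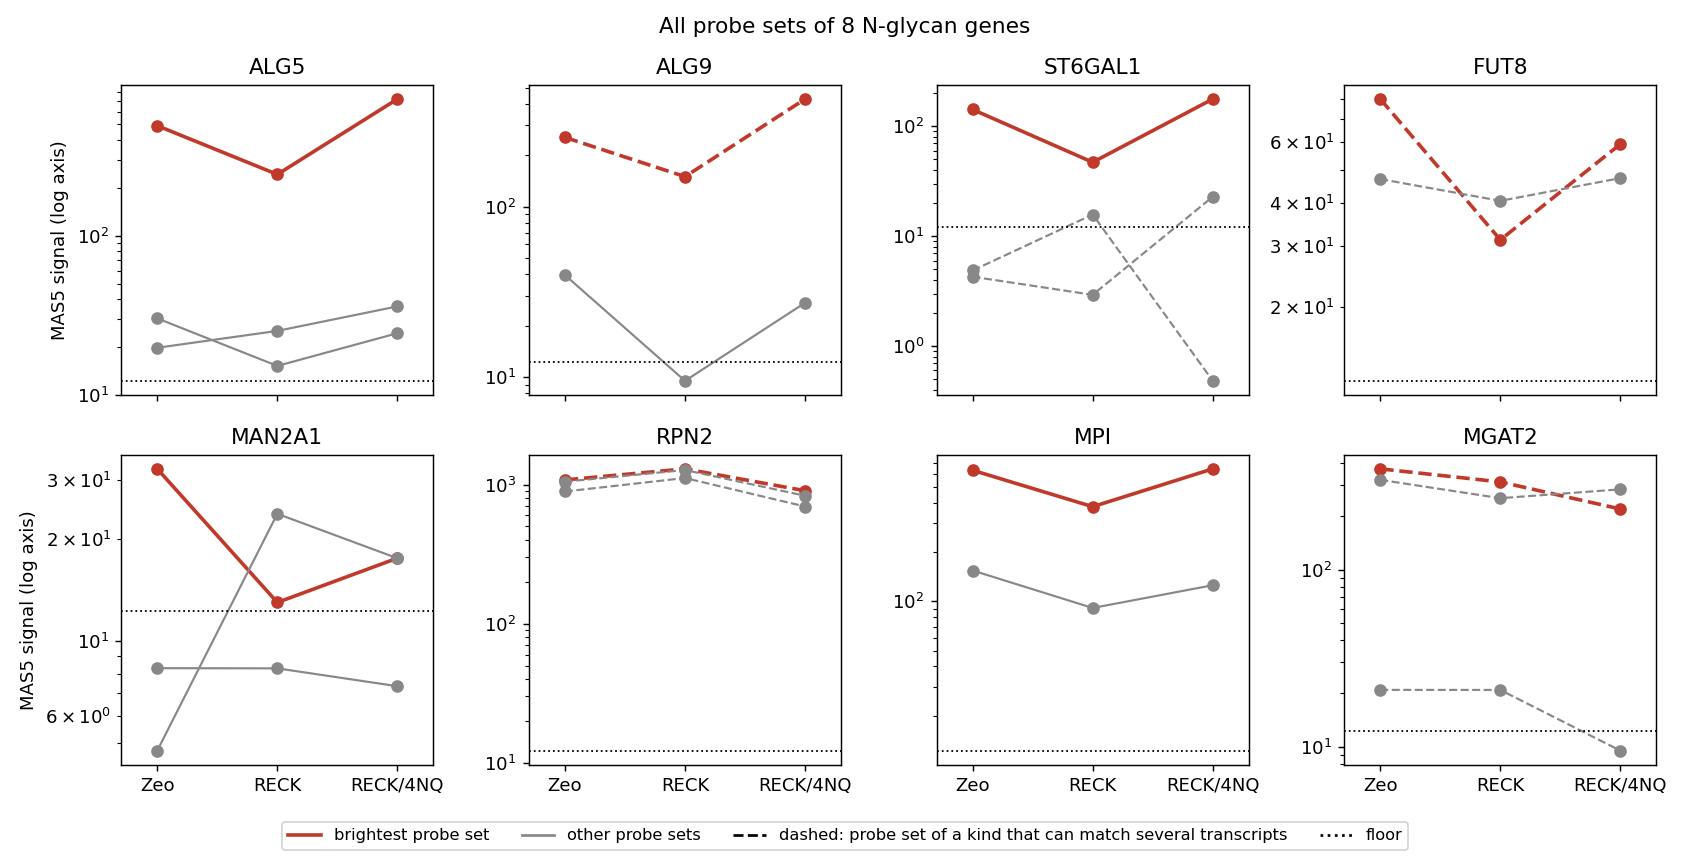
Signals (log axis, with a different range in each panel) of every probe set of 8 members on the Zeo, RECK and RECK/4NQ arrays, with the brightest in red and dashed lines for probe sets designed to match more than 1 transcript. Lines of RPN2 run in parallel and those of MPI nearly so, while MAN2A1 and the dim probe sets of ST6GAL1 cross.

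How far a gene's other probe sets bear out the brightest can be counted. The members had 93 probe sets, 14 members had 1, and 37 of the 53 others were at or above the floor in mean level. For members past 1.5-fold, the other probe sets went in the same direction in 4 of 6 cases for RECK over Zeo, 4 of 6 for RECK/4NQ over Zeo, and RECK over RECK/4NQ had 5 of 6. Over all members the counts were 25, 20 and 22 of 37. The plot of all probe sets shows the cases that matter most.

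In all, 6 members had RECK below Zeo, RECK/4NQ above it and at least 1.5-fold between them: DPAGT1, ALG9, ALG5, MPI, STT3A and ST6GAL1. Under centring and under quantile normalisation the list was of the same 6 genes, but it depends on the probe sets. With all probe sets averaged 4 genes had this order, without MPI and ST6GAL1, and without shared probe sets 4 had it, without DPAGT1, which then has no probe set, and ALG9. The reverse order was found in 0 members as deposited, where 8.53% of all genes and 5.27% of bright genes had it. It was found in 2 members after centring (DPM1 and MAN1A1) and in 3 after quantile normalisation (with RPN2). With probe sets averaged 3 had it (ALG13, GFPT1 and RPN2), and without shared probe sets 3 (ALG13, GFPT1 and TUSC3). Shares of all genes under these other settings were not computed. The 6 members with RECK lowest and RECK/4NQ highest are 15.4% of 39 members, where 9.65% of all genes had that order. They are 18.2% of the 33 bright members, where 10.3% of equally bright genes had it. The 3 comparisons share their arrays, the order was chosen after the values were seen, and nothing particular to these genes follows from the shares.

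The 250 bases before the annotated start of these 6 genes are shown because the genes shared an order of signals across the arrays. Sequences are from the RefSeq promoter table for GRCh38.p14, which matched 35 of the 41 members, and are written on the strand of the gene. Where a gene has several starts the most upstream was used. STT3B, RPN1, TUSC3, MOGS, MAN1A2 and MGAT4A had no entry used here. Capitals mark matches, on either strand, to 4 motifs. CCAAT is the site of NF-Y. CCGGAAG is an ETS-type site. CCCGCCC is a GC box, and a TATA box is read as TATAAA.
DPAGT1, chr11:119101854-119102103, minus strand: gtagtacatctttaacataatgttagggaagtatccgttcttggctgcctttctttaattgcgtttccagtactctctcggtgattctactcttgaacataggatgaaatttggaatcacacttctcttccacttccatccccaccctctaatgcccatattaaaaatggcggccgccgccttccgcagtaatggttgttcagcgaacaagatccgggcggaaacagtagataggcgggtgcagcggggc
ALG9, chr11:111871582-111871831, minus strand: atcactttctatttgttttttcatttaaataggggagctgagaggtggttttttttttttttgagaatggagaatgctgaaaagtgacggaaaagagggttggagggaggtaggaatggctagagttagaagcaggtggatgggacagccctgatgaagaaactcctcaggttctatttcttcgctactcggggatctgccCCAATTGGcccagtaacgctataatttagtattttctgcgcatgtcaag
ALG5, chr13:36999368-36999617, minus strand: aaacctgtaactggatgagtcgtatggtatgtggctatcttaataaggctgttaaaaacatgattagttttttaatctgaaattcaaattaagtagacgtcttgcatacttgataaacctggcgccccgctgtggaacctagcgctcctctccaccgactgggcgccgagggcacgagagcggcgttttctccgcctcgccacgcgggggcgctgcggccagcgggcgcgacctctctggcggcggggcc
MPI, chr15:74889792-74890041, plus strand: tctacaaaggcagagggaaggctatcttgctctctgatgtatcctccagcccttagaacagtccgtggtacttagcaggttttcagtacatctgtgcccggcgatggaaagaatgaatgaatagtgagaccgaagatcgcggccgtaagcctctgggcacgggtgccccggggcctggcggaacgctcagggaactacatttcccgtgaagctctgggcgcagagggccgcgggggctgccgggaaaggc
STT3A, chr11:125592602-125592851, plus strand: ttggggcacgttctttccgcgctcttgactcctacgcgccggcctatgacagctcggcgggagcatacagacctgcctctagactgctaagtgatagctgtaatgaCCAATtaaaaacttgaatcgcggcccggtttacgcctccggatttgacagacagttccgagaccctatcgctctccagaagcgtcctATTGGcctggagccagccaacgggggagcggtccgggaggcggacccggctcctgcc
ST6GAL1, chr3:186930276-186930525, plus strand: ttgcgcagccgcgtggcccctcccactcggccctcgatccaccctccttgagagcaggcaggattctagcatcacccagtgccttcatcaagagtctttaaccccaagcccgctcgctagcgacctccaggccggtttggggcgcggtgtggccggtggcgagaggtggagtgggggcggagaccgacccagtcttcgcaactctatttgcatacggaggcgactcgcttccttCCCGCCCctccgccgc

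Of these 6 windows, STT3A and ALG9 held CCAAT matches (those of ALG9 overlap on opposite strands), ST6GAL1 held CCCGCCC, and DPAGT1, ALG5 and MPI held none of the searched motifs. CCAAT was present in 42.9% of the 35 members' windows and in 33.0% of the windows of all 27305 genes. CCCGCCC was in 45.7% and 31.3%, CCGGAAG in 14.3% and 8.78%, and TATAAA in 2.86% and 11.2%. No motif was common to the 6 genes. The endoplasmic reticulum stress response element, CCAAT and CCACG a fixed distance apart, searched on either strand, is the site through which ATF6 and NF-Y act in the unfolded protein response, a program that raises many genes of this route. It contains CCAAT and was found in 0.0769% of all genes' windows and in 1 member, ALG12, whose signals were 183, 136 and 153. That match alone is in capitals in the stretch of its window shown next.
ALG12, chr22:49918534-49918592, minus strand: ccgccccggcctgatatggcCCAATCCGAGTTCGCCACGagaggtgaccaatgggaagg

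A match describes letters and shows no binding, and a window without one says nothing of the factor.

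ALG9, DPAGT1 and STT3A lie on chromosome 11, in that order, so the signals of the genes around them were taken. The 111 other measured genes between ALG9 and STT3A had relative medians of 0.04, 0.08 and -0.01 in the same order of comparisons. Over the 20 measured genes nearest to each, the relative median for RECK over RECK/4NQ was 0.06 at ALG9, -0.37 at DPAGT1 and -0.25 at STT3A. The members themselves were at -1.45, -0.75 and -0.76. At ALG5, on chromosome 13, the 20 neighbours had -0.30 against -1.51 for the gene, and at ST6GAL1, on chromosome 3, -0.03 against -1.85. With the neighbours' median subtracted, DPAGT1 and STT3A were less than 1.5-fold lower in RECK than in RECK/4NQ, at log2 ratios of -0.44 and -0.57. ALG9, ALG5 and ST6GAL1 were lower than the median gene beside them, though single neighbours varied widely. At ALG5, 9 of the 20 neighbours had a relative ratio at least 1.5-fold lower, down to -1.26, against 3 at ALG9, down to -1.43, and 4 at ST6GAL1, down to -1.65. Of all genes, 16.6% were at least 1.5-fold lower in this comparison before the median was subtracted. The share by relative ratio was not computed. In RECK over Zeo, subtracting the neighbours took ALG5 from a log2 ratio of -1.02 to -0.61, under 2-fold. The part of the neighbouring genes in these ratios was not tested further.

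**Figure D4:**
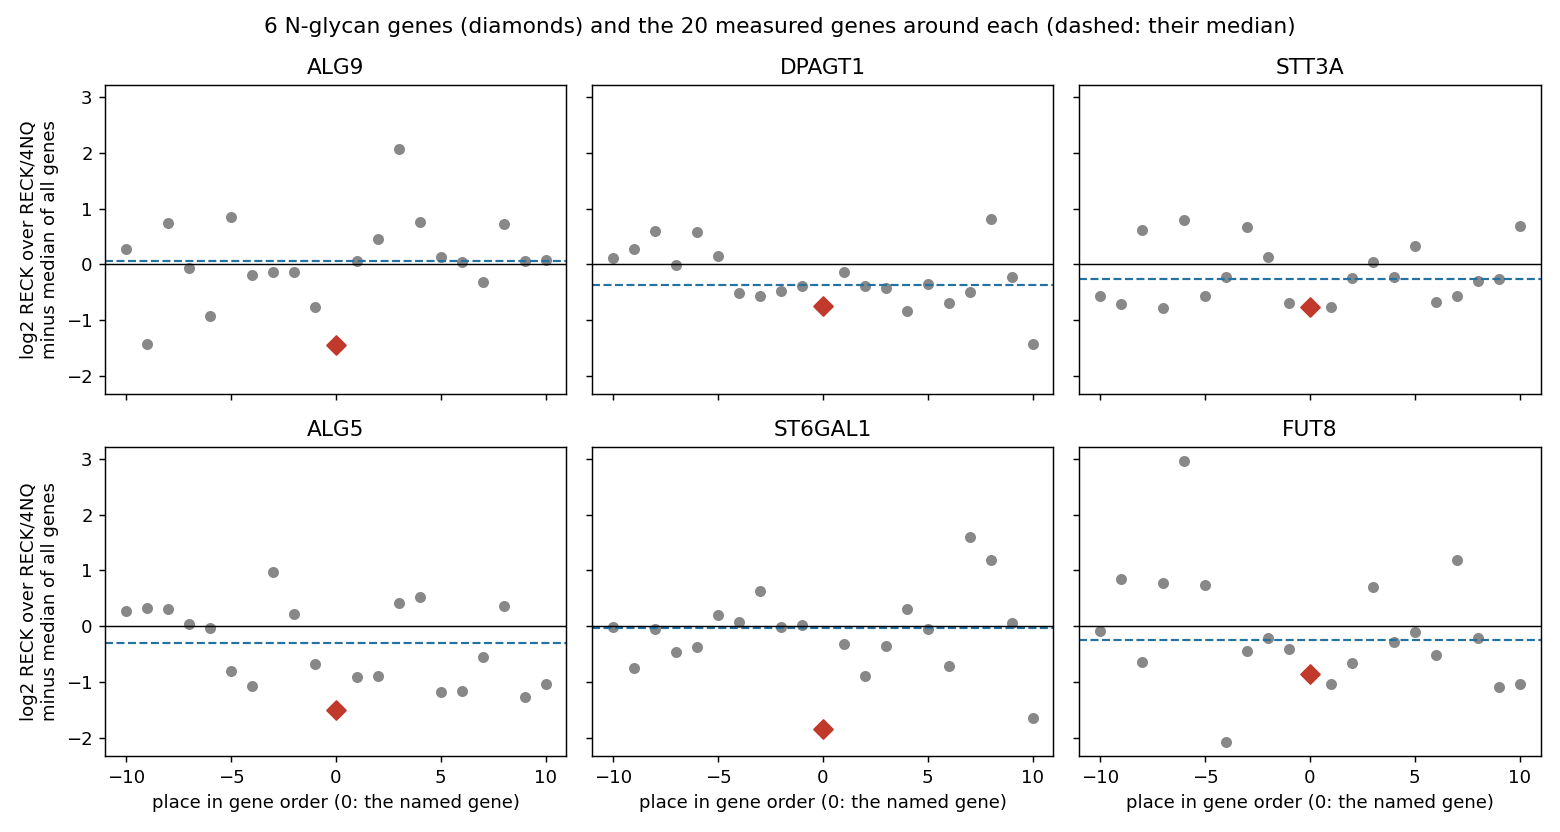
Log2 ratio of RECK over RECK/4NQ minus the median of all genes for 6 members (red diamonds) and the 10 measured genes on each side in chromosome order (grey), with the neighbours' median as a dashed line. The diamonds of ALG9, ALG5 and ST6GAL1 lie at -1.45, -1.51 and -1.85, below dashed lines at 0.06, -0.30 and -0.03, and grey points scatter widely around those lines.

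A further 55 genes of the same route were listed as company for the members, and 48 had a probe set. At or above the floor in mean level were 44 of them. In RECK over Zeo 11 were at least 1.5-fold lower (25% of 44, against 22.0% of all genes) and 3 higher (6.82%, against 10.6%), with 1 past 2-fold, lower (2.27%, against 8.01%). In RECK/4NQ over Zeo 6 were lower (13.6%, against 21.0%) and 3 higher (6.82%, against 9.23%), with 1 past 2-fold, lower (2.27%, against 8.61%). In RECK over RECK/4NQ 7 were lower (15.9%, against 16.6%) and 3 higher (6.82%, against 16.4%), with 0 past 2-fold. These shares were near or below those of all genes. The relative medians of the 44 were -0.02, 0.04 and -0.10. The gene past 2-fold was SLC35A1, which carries CMP-sialic acid into the Golgi, with a dim signal of 41.9 (Zeo), 15.7 (RECK) and 20.9 (RECK/4NQ). It was 2.67-fold lower in RECK and 2.01-fold lower in RECK/4NQ than in Zeo.

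SLC35A1 supplies the substrate of ST6GAL1, so the genes that make that substrate are given next, a choice made after the values were seen. GNE, the first enzyme of sialic acid synthesis, read 142 (Zeo), 73.9 (RECK) and 133 (RECK/4NQ), 1.92-fold lower in RECK than in Zeo. NANS, which condenses the sugar acid, read 1670, 1214 and 1634, and CMAS, which activates it, read 54.0, 39.7 and 65.8. RECK was the lowest array for each of these 3 genes, as for ST6GAL1, which was also so for 45.2% of all genes and 54.1% of bright ones, so nothing particular is read from it, and NANS and CMAS did not reach 1.5-fold against Zeo. Of the other sialyltransferases of the list ST3GAL3 alone had RECK lowest among those at or above the floor on every array. It read 250, 166 and 241, whereas ST3GAL4 read 164, 126 and 103, and ST3GAL6 read 60.4, 69.5 and 38.6.

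For fucose, GMDS and GFUS make the GDP-fucose that FUT8 uses. GMDS read 322 (Zeo), 219 (RECK) and 390 (RECK/4NQ), and GFUS read 2179, 1382 and 2007. Against Zeo, both were lower in RECK, while in RECK/4NQ GMDS was higher and GFUS lower. SLC35C1, the transporter of GDP-fucose, was above Zeo in both RECK and RECK/4NQ, at 188, 306 and 262.

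At the start of the route, DOLPP1, which recycles dolichyl pyrophosphate, read 1042, 539 and 544, 1.93-fold and 1.92-fold lower than Zeo in RECK and RECK/4NQ. DOLK, dolichol kinase, read 531, 335 and 380. The partners of DPM1 differed in direction: DPM2 read 3256, 1812 and 2375, and DPM3 read 675, 1200.3 and 1071. The lectin chaperones that bind trimmed glycans are CANX and CALR. CANX read 658, 515 and 776, 1.51-fold lower in RECK than in RECK/4NQ. CALR read 2652, 2702 and 2909, and their partner PDIA3 read 1180, 1069 and 1121, neither past 1.5-fold. OST4, a small subunit of the oligosaccharyltransferase, read 2893, 2234 and 3686 and was 1.65-fold lower in RECK than in RECK/4NQ.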

How the data were processed

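The deposited values are MAS5 signals, intensity on a linear scale, 1 per probe set and array, per the submitters' processing notes. Its version and the target of its scaling were not given in the sources used here. Of 54675 probe sets, 62 controls were left out, 41091 had 1 gene symbol in the platform annotation, 1801 had several and 11721 were not listed with one. A gene was its brightest probe set by mean log2 signal. Signals below the floor (40th percentile, 12.2) were set to it before log2 ratios. A call needed 1.5-fold or 2-fold with at least 1 array at or above the floor. Medians covered genes whose mean log2 signal reached the floor. The spread was 1.4826 times the median absolute deviation over the 1000 genes nearest in level. RefSeq gene order (GRCh38) gave neighbours. With 1 array per line no p-value was computed. The code for fold calls was tested on simulated data at 2-fold only, not at 1.5-fold. Python 3.11.15, numpy 2.4.6 and pandas 2.3.3 were used. Every member was named, with its signals; other pathway genes by counts and examples. The members and lists were chosen with earlier results of these data known. Alternatives were scaling, probe set choice, floor and filter; subtracting neighbour medians was added after seeing the data.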

Additional observations from a re-analysis of the deposited data

How the results depend on the processing

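Members past 2-fold numbered 2 (RECK over Zeo) and 1 (RECK over RECK/4NQ) with probe sets averaged (4 and 3 as reported). With the floor at the 20th percentile they numbered 2 (RECK/4NQ over Zeo) and 5 (RECK over RECK/4NQ). Without probe sets that can match several transcripts, where 31 members were left, they numbered 1 for RECK/4NQ over Zeo (0 as reported). The shares of all genes past 2-fold under these settings were not computed, so nothing particular to the members is read from these counts. The other 43 of 48 counts were within 1.5 times. The relative median of all members for RECK over Zeo was 0.026 with probe sets averaged, -0.042 without shared probe sets, -0.23 with no filter on level and -0.063 with neighbour medians subtracted. For RECK/4NQ over Zeo it was -0.13 after quantile normalisation, -0.12 without shared probe sets and -0.15 with no filter. For RECK over RECK/4NQ it was -0.0070 with probe sets averaged. Its other 16 values moved by less than the spread of the median over members. Directions reversed with probe sets averaged for MAN2A1 (0.16 and 0.10 in log2 ratio to Zeo in RECK and RECK/4NQ) and ST6GAL1 (0.050 to RECK/4NQ), and without shared probe sets for ALG9 in RECK/4NQ over Zeo (-0.54). In these the dimmer probe sets entered; other causes were not tested. Of the other single values, 167 kept their call and 24 lost it. No paired analysis was possible because each line had 1 array. Signals near the floor, as for MAN1A1, MAN2A1 and MGAT4A, limit what can be read from them.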
